A study of Mus musculus with 8 samples.

Results

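The interferon response and immune GTPase genes are 40 named genes, chosen by symbol from the antiviral effectors, RNA sensors, transcription factors, guanylate-binding proteins (GBPs), immunity-related GTPases (IRGs) and antigen processing genes that interferons are known to induce in mice. All 40 were among the 24972 genes listed in the deposited tables of mouse liver RNA, and all 40 passed the filter on low values that left 13301 tested genes (at least 10 normalized counts in at least 4 libraries). The members were chosen by name and not by a rule on their values, but with earlier results of these data known. In the ATF3 group, C57BL/6J mice received AAV8-ALB-ATF3, an adeno-associated virus of serotype 8 that carries the stress-response transcription factor ATF3. In the Null group, mice of the same strain received AAV8-ALB-Null, the control vector. Both were given into a vein at 10 weeks of age, and livers were taken 8 weeks later, at 18 weeks. Every animal therefore carried an AAV8 vector, and no uninjected animals were in the series. ALB in the vector names is taken here to stand for the albumin promoter, which is active in hepatocytes. Each group had 4 total RNA libraries, although the design text names 8 mice per group, and whether a library held 1 mouse or a pool is not given in the sources used here. The p-values below measure the spread between these libraries.

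Interferons bind receptors on the cell surface that signal through Janus kinases (JAKs) to STAT proteins. Type I interferons act mainly through a complex that holds STAT2 and IRF9 and binds the interferon-stimulated response element (ISRE), and interferon gamma acts through the gamma-activated site (GAS) and the factor IRF1. The induced genes block viral RNA, attack the membranes around intracellular pathogens, sense foreign nucleic acid and cut peptides for display on MHC class I. Hepatocytes, Kupffer cells and liver endothelial cells can all respond to interferon. ATF3 is a bZIP transcription factor that in mouse macrophages is known to restrain type I interferon signalling.

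The vector's own gene checked the labels. Atf3 had 5611, 5886, 7053 and 6722 normalized counts in the ATF3 libraries, against 24.2, 22.5, 24.5 and 20.3 in the Null libraries. The library sums of normalized counts ran from 23919261 to 25882965 in the ATF3 group and from 26175086 to 28446045 in the Null group. Null 4 stood apart for the members. It was the highest Null library for 29 of the 40 members, and its median log2 deviation from the mean of the other Null libraries was 0.33 over the members, against 0.03 over all tested genes. ATF3 1 was the lowest ATF3 library for 23 members, and Null 1 was the lowest Null library for 22. Genes were also put in 3 equal classes by longest annotated transcript, with median deviations taken in the same way within each group. The shortest genes had a median deviation of -0.12 in ATF3 1, -0.09 in Null 1 and 0.12 in Null 4. The longest had 0.09 in ATF3 1, 0.06 in Null 1 and -0.04 in Null 4. Of the members, 15 were in the shortest class and 6 in the longest. The part of transcript length in the values of the members was not tested.

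The members did not move in 1 direction. With limma and Benjamini-Hochberg adjustment over all 13301 tested genes (adjusted p under 0.05, two-sided), 10 of 40 members rose in ATF3 livers, which is 25% against 11.4% of all tested genes. Another 7 fell, which is 17.5% against 9.82% of all tested genes, and 23 did not pass; the 17 called members are 42.5%, against 21.2% of all tested genes called in either direction. The 10 that rose were Gbp7, Cmpk2, Gbp6, Gbp3, Oasl1, Rsad2, Gbp2, Psmb9, Dhx58 and Parp14. The 7 that fell were Gvin1, Mx2, Usp18, Bst2, Iigp1, Irf1 and Irgm2. Every ATF3 library lay above every Null library for 9 members, against 13.7% of all tested genes, and below every Null library for 8 members, against 12.6% of all tested genes, together 17 members against 26.3%. The median log2 change of the members was 0.09, beside 0.01 for all tested genes, and their median change without regard to sign was 0.29, beside 0.24. These are bulk samples, in which a larger number of cells of a type and more RNA per cell cannot be told apart.

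**Figure D1:**
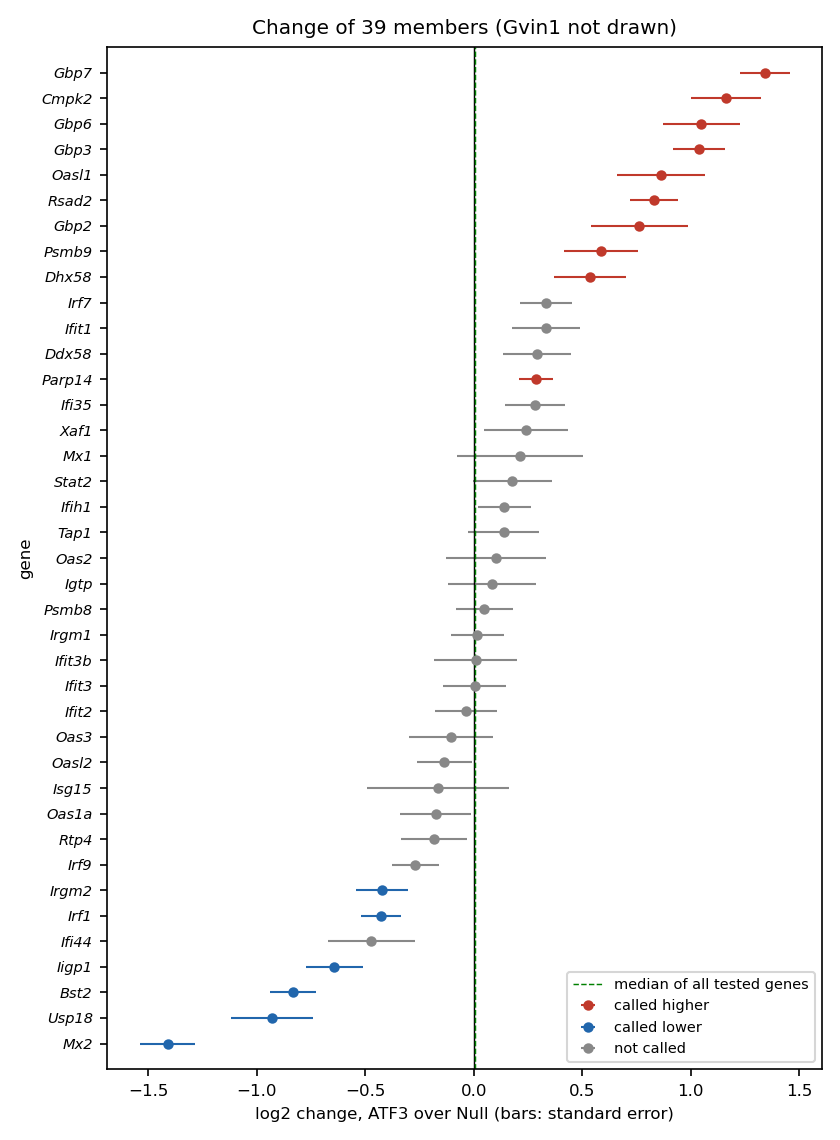
Log2 change (ATF3 over Null) of 39 members with its standard error, one row per gene, coloured by whether the gene passed limma's test at an adjusted p under 0.05. Gbp7 has the highest change (1.34) and Mx2 the lowest of those drawn (-1.41); Gvin1, at -6.00 with 2 ATF3 libraries listed at 0, is not drawn.

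The scale and single libraries bear on all of these counts. In the deposited TPM values a single locus, Mir6236, held between 0.308% and 89.4% of a library's total, so that the median log2 change of all tested genes on that scale was 0.75 and that of the members 0.91; there 0 members passed as higher and 1, Gvin1, as lower. After the TPM values were rescaled by the median of ratios, the same 10 members passed as higher and the same 7 as lower. The number of higher members fell to 6 when ATF3 2, ATF3 3, ATF3 4 or Null 1 was left out. In every fit that left out 1 library, Gbp3, Gbp6, Gbp7, Cmpk2, Rsad2 and Oasl1 stayed higher and Mx2, Usp18, Bst2, Iigp1 and Irf1 stayed lower.

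The sequences upstream of the members show what they share apart from their values. RefSeq windows (GRCm38.p6, 250 bases before to 50 after the annotated start) were matched by symbol for 30 of the 40 members. Where a gene had several windows, a match in any of them counted, for members and all genes alike. The ISRE core, written here as GAAA, any 2 bases and GAAA and searched on both strands, was in 17 of these 30 windows (56.7%), against 3.99% of 27025 gene windows. It was in 4 of the 7 higher members with a window, in 2 of the 3 lower ones and in 11 of the 20 that did not pass. The GAS core TTCNNNGAA, which reads the same pattern on both strands, was in 9 of 30 windows (30.0%), against 9.55% of all. The letters TGACGTCA, the cAMP response element, were in 0 of 30 windows, against 2.03% of all. TGACTCA, the AP-1 element, was in 6 of 30 (20.0%), against 5.95% of all. Both were searched on either strand, and binding of ATF3 to either element was not tested. A match is only a run of letters in this window. The 150 bases before the start are shown for 8 members with an ISRE match so that the direction of change can be read beside the element: Gbp7, Gbp3, Gbp2 and Rsad2 rose, Irgm2 and Bst2 fell, and Irgm1 and Ifit1 did not pass. Each runs 5′ to 3′ on the gene's strand, and capitals mark the ISRE matches on either strand; in Gbp3, Bst2 and Irgm1 a pair of matches overlaps. Where a gene had several annotated starts, the start with the most ISRE matches before it was taken for display. The Irgm2 window differs from the rest: a stretch shortly after its RefSeq start was not found in its GENCODE transcripts, so the start itself is uncertain. That start lies inside the GENCODE span of Irgm2 (chr11:58199618-58222782). The RefSeq starts used for Gbp3, Gbp2, Irgm1 and Ifit1 also lie inside the GENCODE spans of those genes.
Gbp7, chr3:142530186-142530335, plus strand: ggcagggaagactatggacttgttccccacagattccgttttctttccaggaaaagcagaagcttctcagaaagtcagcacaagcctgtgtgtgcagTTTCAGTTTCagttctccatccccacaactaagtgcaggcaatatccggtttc
Gbp3, chr3:142559894-142560043, plus strand: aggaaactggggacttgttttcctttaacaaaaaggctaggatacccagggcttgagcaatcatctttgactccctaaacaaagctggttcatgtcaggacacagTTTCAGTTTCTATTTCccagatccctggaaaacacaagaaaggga
Gbp2, chr3:142620513-142620662, plus strand: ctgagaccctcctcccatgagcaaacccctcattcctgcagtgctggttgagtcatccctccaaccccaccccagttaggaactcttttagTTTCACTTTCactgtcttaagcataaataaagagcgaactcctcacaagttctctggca
Rsad2, chr12:26456453-26456602, minus strand: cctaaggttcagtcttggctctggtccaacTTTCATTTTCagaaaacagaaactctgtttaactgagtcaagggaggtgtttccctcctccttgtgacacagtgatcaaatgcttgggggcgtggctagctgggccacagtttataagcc
Irgm2, chr11:58214827-58214976, plus strand: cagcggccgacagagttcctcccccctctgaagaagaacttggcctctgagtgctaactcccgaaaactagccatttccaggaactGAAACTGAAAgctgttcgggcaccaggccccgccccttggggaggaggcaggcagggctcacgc
Bst2, chr8:71537473-71537622, minus strand: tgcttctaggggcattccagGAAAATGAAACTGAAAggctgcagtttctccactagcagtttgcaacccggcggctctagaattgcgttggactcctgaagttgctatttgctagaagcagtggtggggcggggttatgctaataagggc
Irgm1, chr11:48871421-48871570, minus strand: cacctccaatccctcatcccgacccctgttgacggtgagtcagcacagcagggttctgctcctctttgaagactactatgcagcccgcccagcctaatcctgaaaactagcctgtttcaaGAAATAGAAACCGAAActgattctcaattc
Ifit1, chr19:34640739-34640888, plus strand: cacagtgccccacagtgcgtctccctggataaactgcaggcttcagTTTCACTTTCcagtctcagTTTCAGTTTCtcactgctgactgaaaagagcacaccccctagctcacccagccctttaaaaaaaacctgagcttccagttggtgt

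The capitals lie 53 bases before the start in Gbp7, 59 in Gbp2 and 64 in Irgm2 (from its RefSeq start), counted to the first base of the match. Gbp7 and Irgm2, which moved in opposite directions, both hold a GAS match beside the ISRE, at 106 and 87 bases before the start in Gbp7 and at 75 in Irgm2. In Bst2 the GAS match begins 136 bases before the start and overlaps the ISRE match that begins at 130.

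The 4 guanylate-binding proteins among the members rose (100%, against 11.4% of all tested genes), and most of the other GBP genes did not pass. GBPs are large GTPases that interferon gamma induces and that assemble on the membranes of pathogens and their vacuoles. The 4 GBP members had a median log2 change of 1.04, and none of the settings of scaling turned their direction. Of the GBP genes outside the members, Gbp10 rose and the 6 others tested did not pass: Gbp8 had a log2 change of 0.48, Gbp2b of 0.10, Gbp9 of 0.045, Gbp5 of -0.17, Gbp4 of -0.24 and Gbp11 of -0.41 (adjusted p 0.177 to 0.875). Gbp7 (chr3:142530342-142550149) had 1723, 1959, 2086 and 2145 normalized counts in the ATF3 libraries, against 664, 750, 829 and 884 in the Null libraries. The lowest ATF3 library stood far above the highest Null library. Its log2 change was 1.34 (SE 0.11, adjusted p 2.75e-05), a ratio of means of 2.53. Gbp3, its neighbour on chromosome 3, had 488, 485, 583 and 601 normalized counts in the ATF3 libraries, against 264, 232, 253 and 298 in the Null libraries. The groups were again apart, by a log2 change of 1.04 (SE 0.12, adjusted p 0.000196). Gbp2, at chr3:142620602-142638008, had 295, 368, 501 and 489 normalized counts in the ATF3 libraries, against 227, 193, 205 and 354 in the Null libraries. Here the groups overlapped, because Null 4 lay above ATF3 1, and the log2 change was 0.76 (SE 0.22, adjusted p 0.0350). The call of Gbp2 was lost without any 1 of ATF3 2, ATF3 3, ATF3 4, Null 1, Null 2 and Null 3 (adjusted p 0.0605 to 0.107).

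Gbp6 lies in the GBP cluster on chromosome 5 (chr5:105270702-105293698). It had 1035, 1299, 1680 and 1306 normalized counts in the ATF3 libraries, against 580, 566, 564 and 869 in the Null libraries. Null 4 was well above the other Null libraries and still below every ATF3 library. The log2 change was 1.05 (SE 0.18, adjusted p 0.00218). Of the 31-base stretches in Gbp6 transcripts, 74.2% also occur in transcripts of other genes, so reads could be split between copies, and the value is uncertain as that of 1 gene. The sum of Gbp6 and Gbp10 was 2429, 3108, 3778 and 2754 normalized counts in the ATF3 libraries, against 914, 1147, 1187 and 1787 in the Null libraries. That sum, chosen after the values were seen and not tested, had a log2 ratio of means of 1.26.

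**Figure D2:**
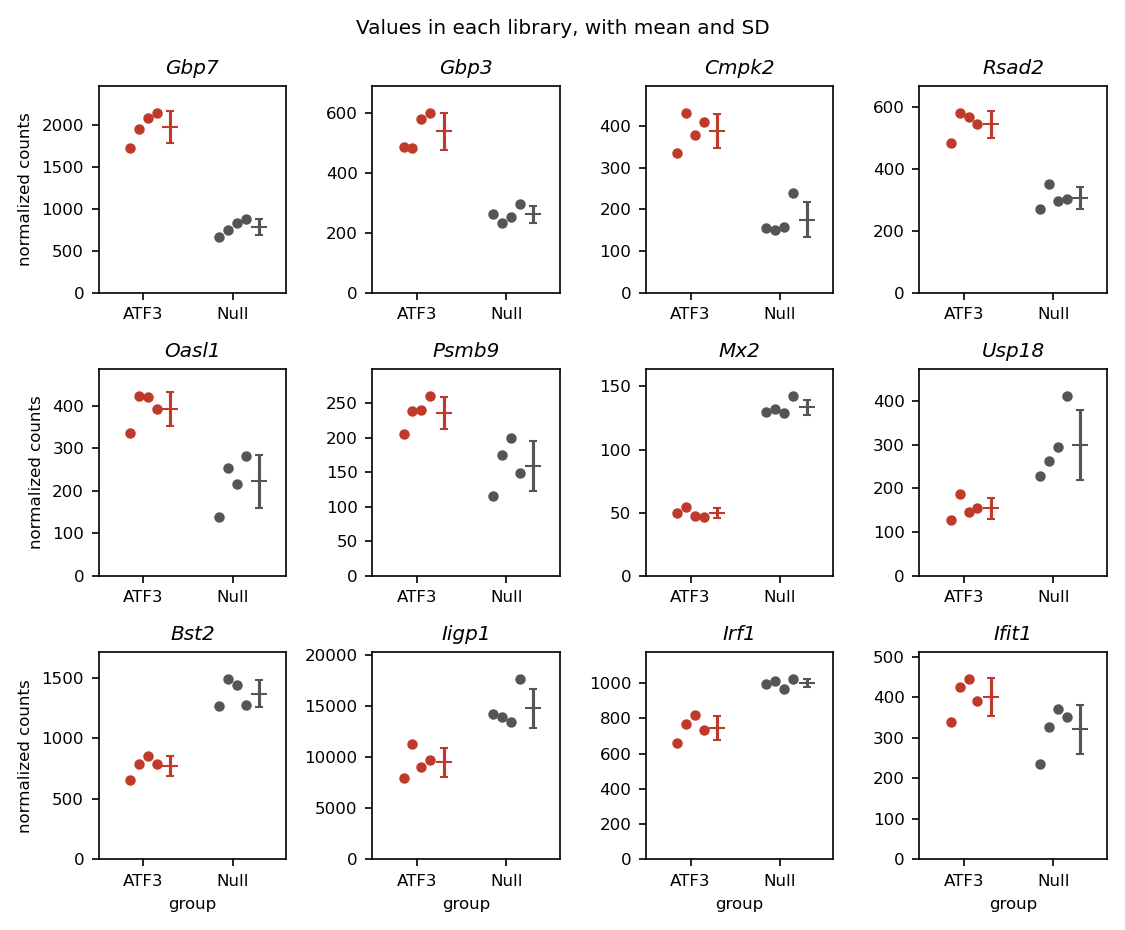
Normalized counts per library (linear axis, points) of selected members, ATF3 libraries left of Null libraries, with the group mean and SD as a cross and error bar. The 4 ATF3 libraries lie above all Null libraries for Gbp7 and below all of them for Mx2 and Bst2.

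The IRG and giant GTPases went the other way or did not pass. IRGs are interferon-inducible GTPases that load onto pathogen vacuoles, and the GMS subfamily (Irgm1, Irgm2 and Igtp) holds the effector IRGs such as Iigp1 in check until they reach a target. Of 5 members, 3 fell (60%, against 9.82% of all tested genes) and none rose. The calls of Irgm2 and Gvin1 were lost when some single libraries were left out. On the deposited TPM scale the median of all genes was 0.75. There the fall of Iigp1 and Irgm2 turned to a log2 change of 0.36 and 0.50, and that of Gvin1 kept its sign. Iigp1, on chromosome 18, had 7928, 11295, 8999 and 9729 normalized counts in the ATF3 libraries, against 14212, 13899, 13408 and 17617 in the Null libraries. The highest ATF3 library was below the lowest Null library. The log2 change was -0.64 (SE 0.13, adjusted p 0.00634). Iigp1 was also the member with the most RNA per length, with a mean of 232 TPM in ATF3 livers and 303 TPM in Null livers once Mir6236 and Rn45s were taken out of the total.

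Irgm2 (chr11:58199618-58222782) had 1355, 1348, 1616 and 1521 normalized counts in the ATF3 libraries, against 1747, 1870, 2424 and 1836 in the Null libraries. The groups did not overlap, and the log2 change was -0.42 (SE 0.12, adjusted p 0.0293). Its annotated span overlaps that of Igtp, whose log2 change was 0.09 (SE 0.20, adjusted p 0.807), and how reads in the shared span were counted is not given. Irgm1, the regulator that protects host membranes from the effector IRGs, had a log2 change of 0.02 (SE 0.12, adjusted p 0.942). The call of Irgm2 was lost without any 1 of ATF3 1, ATF3 2, ATF3 4, Null 2 and Null 3 (adjusted p 0.0521 to 0.0833), and with equal library sums (0.130).

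Gvin1 encodes a very large interferon-inducible GTPase. It was listed with 358, 0, 0 and 236 normalized counts in the ATF3 libraries, against 919, 832, 861 and 2149 in the Null libraries. The groups were apart, but 99.7% of the 31-base stretches in Gvin1 occur in other genes, nearly all of them in Gm4070, so the split between these copies is uncertain. The fitted log2 change of -6.00 (SE 1.84, adjusted p 0.0422) depends on the value added before the logarithm. The summed Gvin1 and Gm4070 values were 2003, 2341, 2309 and 2813 in the ATF3 libraries, against 5150, 4459, 7285 and 8350 in the Null libraries. No ATF3 sum reached a Null sum, and the log2 ratio of means was -1.42, chosen after the values were seen and not tested. The call of Gvin1 itself was lost without any 1 of ATF3 2, ATF3 3 and the 4 Null libraries (adjusted p 0.0552 to 0.113), and with a robust variance (0.124).

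The antiviral effectors split gene by gene. Viperin, the product of Rsad2, makes a chain-terminating nucleotide from CTP, and Cmpk2, its neighbour, encodes a nucleotide kinase. Both rose, and neither turned under any scaling. Cmpk2 (chr12:26469204-26479837) had 335, 432, 378 and 409 normalized counts in the ATF3 libraries, against 155, 151, 158 and 239 in the Null libraries. Null 4 was again the highest Null library, and the groups stayed apart. The log2 change was 1.16 (SE 0.16, adjusted p 0.000694), a ratio of means of 2.21. Rsad2 (chr12:26442746-26456452) had 482, 580, 568 and 543 normalized counts in the ATF3 libraries, against 271, 352, 296 and 303 in the Null libraries. All ATF3 values were above all Null values, with a log2 change of 0.83 (SE 0.11, adjusted p 0.000556).

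The oligoadenylate synthetase family makes the messenger molecule that switches on RNase L, and Oasl1, which lacks that activity, is known in mice to repress translation of Irf7. Of 5 members, Oasl1 alone passed (20%, against 21.2% of all tested genes called). It had 336, 423, 420 and 394 normalized counts in the ATF3 libraries, against 138, 254, 215 and 283 in the Null libraries. The groups did not overlap, and the log2 change was 0.86 (SE 0.20, adjusted p 0.0132). Oas1a, Oas2, Oas3 and Oasl2 had log2 changes between -0.18 and 0.10 (adjusted p 0.490 to 0.797). The sign of Oas3 turned with equal library sums and those of Oas1a and Oasl2 on the TPM scale. Of the Oas1a stretches, 68.8% occur in other genes, mainly Oas1g, and the sum of these copies had a log2 ratio of means of -0.05.

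Mx2 fell and Mx1 did not pass. Mx proteins are dynamin-like GTPases that trap viral nucleocapsids. The annotation used here (GENCODE vM21) gives mouse Mx2 as a polymorphic pseudogene. Only RNA can be described for Mx1 and Mx2, and whether either makes a working protein in these mice cannot be read from these values. Mx2 (chr16:97535308-97560900) had 49.8, 54.9, 47.2 and 46.6 normalized counts in the ATF3 libraries, against 130, 132, 129 and 142 in the Null libraries. Both groups were tight and far apart. The log2 change was -1.41 (SE 0.13, adjusted p 4.34e-05), a ratio of means of 0.372. Mx1 had 38.05, 47.5, 43.5 and 45.8 normalized counts in the ATF3 libraries, against 22.2, 38.9, 34.0 and 66.2 in the Null libraries. Its Null values spanned all of the ATF3 values, and the log2 change was 0.21 (SE 0.29, adjusted p 0.654).

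Among the ubiquitin-like genes, Usp18 fell. Usp18 removes ISG15 from proteins and damps signalling at the type I interferon receptor. It had 128, 187, 147 and 156 normalized counts in the ATF3 libraries, against 228, 262, 296 and 411 in the Null libraries. Each ATF3 library was below each Null library, and the log2 change was -0.93 (SE 0.19, adjusted p 0.00615). Isg15, the ubiquitin-like modifier itself, had 74.8, 42.7, 73.0 and 58.9 normalized counts in the ATF3 libraries, against 64.5, 103, 93.4 and 35.1 in the Null libraries. Its groups overlapped, with a log2 change of -0.16 (SE 0.33, adjusted p 0.767) that turned to 0.54 on the TPM scale.

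None of the 4 IFIT members passed. IFIT proteins bind viral RNA that lacks the host's cap marks, and are among the most used readouts of type I interferon. Ifit1 had 339, 426, 444 and 391 normalized counts in the ATF3 libraries, against 235, 327, 370 and 352 in the Null libraries. The groups overlapped, with a log2 change of 0.33 (SE 0.16, adjusted p 0.165). Ifit2, Ifit3 and Ifit3b had log2 changes of -0.035, 0.0035 and 0.0084 (SE 0.14 to 0.19). Ifit3 and Ifit3b share most of their sequence, and their sum had a log2 ratio of means of -0.0022.

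Bst2 (tetherin), which holds budding virus particles at the cell surface, fell in normalized counts and had a log2 change of 0.16 on the TPM scale. It had 655, 784, 851 and 787 normalized counts in the ATF3 libraries, against 1270, 1489, 1444 and 1278 in the Null libraries. A wide gap lay between the groups, and the log2 change was -0.83 (SE 0.11, adjusted p 0.000384). Parp14, a mono-ADP-ribosyltransferase, had 2709, 2499, 2511 and 2375 normalized counts in the ATF3 libraries, against 1988, 2101, 2152 and 2030 in the Null libraries. It rose by a small amount with tight groups, by a log2 change of 0.29 (SE 0.08, adjusted p 0.0280). The call of Parp14 was lost without any 1 of the 4 ATF3 libraries, Null 1 and Null 2 (adjusted p 0.0508 to 0.0777). The other effectors Ifi44, Ifi35, Xaf1 and Rtp4 had log2 changes of -0.47, 0.28, 0.24 and -0.18 (adjusted p 0.126 to 0.440). Without Null 3 Ifi44 passed (0.0436), and without Null 4 Ifi35 passed (0.0392).

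**Figure D3:**
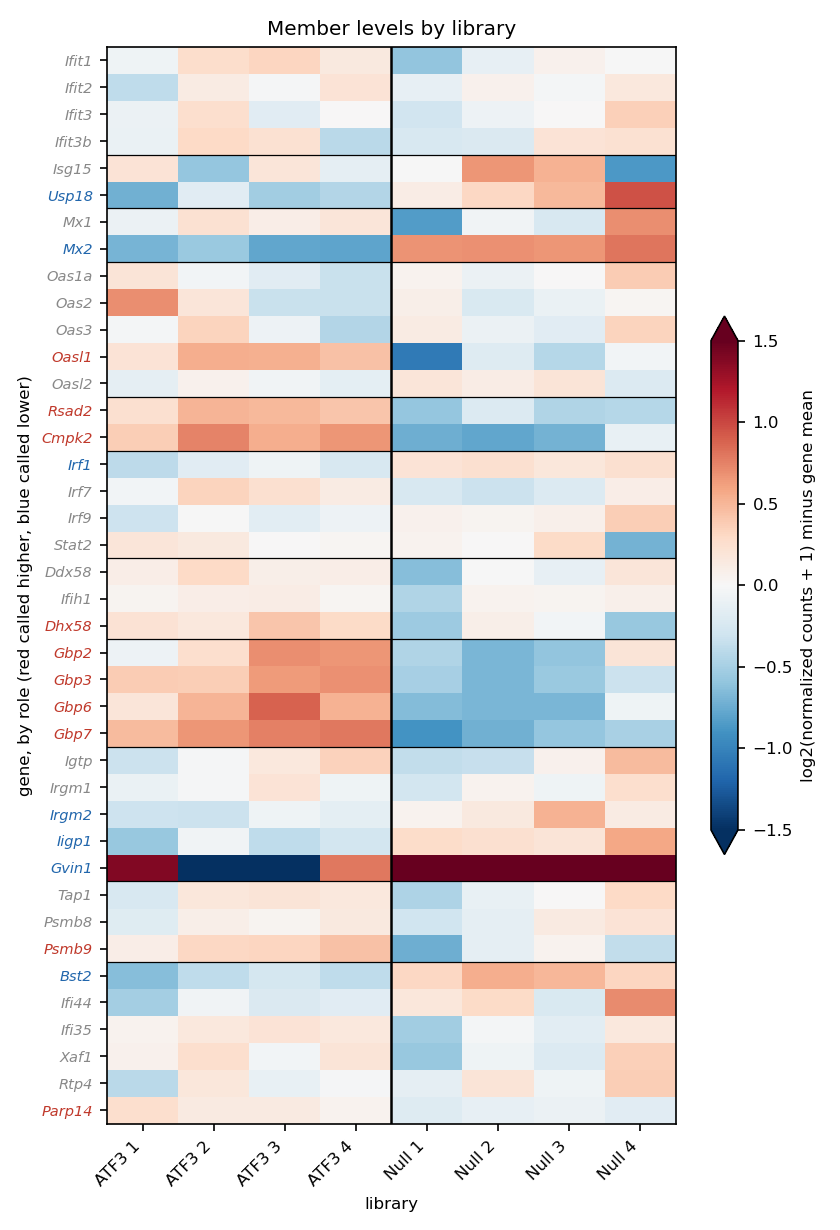
Heat map of the members (one row per gene, grouped by role) in each library (ATF3 libraries left of Null libraries); colour is the deviation of log2(normalized counts + 1) from the gene's mean over all 8 libraries. The colour scale ends at 1.5 and -1.5, which the Gvin1 row passes. The Gbp3, Gbp7, Rsad2 and Cmpk2 rows are high in the ATF3 libraries, the Mx2, Usp18 and Bst2 rows are high in the Null libraries, and Null 4 is the highest Null library for 29 of the 40 members.

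Of the transcription factors, Irf1 fell. Irf1 is an early target of interferon gamma and carries the signal on to the GBP genes and the immunoproteasome. It had 658, 768, 822 and 731 normalized counts in the ATF3 libraries, against 995, 1015, 969 and 1021 in the Null libraries. The Null values lay within a narrow band above every ATF3 value. The log2 change was -0.43 (SE 0.09, adjusted p 0.00806), and 0.49 on the TPM scale. Irf9, the DNA-binding partner of STAT2, had 661, 818, 734 and 775 normalized counts in the ATF3 libraries, against 852, 843, 860 and 1053 in the Null libraries. Its groups did not overlap, but it did not pass (log2 change -0.27, SE 0.11, adjusted p 0.105). Irf7, the amplifier of type I interferon production, had 954, 1238, 1160 and 1064 normalized counts in the ATF3 libraries, against 827, 783, 846 and 1049 in the Null libraries. Only Null 4 reached into the ATF3 range. The log2 change was 0.33 (SE 0.12, adjusted p 0.0738), and Irf7 passed when ATF3 1 (0.0485) or Null 4 (0.0113) was left out and with equal library sums (0.0099). Stat2 had a log2 change of 0.18 (SE 0.18, adjusted p 0.538).

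The RNA sensors recognise viral RNA in the cytoplasm, and Dhx58 (LGP2) tunes the others. Dhx58 had 252, 242, 289 and 266 normalized counts in the ATF3 libraries, against 149, 231, 211 and 146 in the Null libraries. Its lowest ATF3 value was just above its highest Null value. It rose by a log2 change of 0.54 (SE 0.17, adjusted p 0.0437). That call was lost without any 1 of the 4 ATF3 libraries, Null 1 and Null 4 (adjusted p 0.0605 to 0.125), and with a lower filter (0.0580). Ddx58 (RIG-I) and Ifih1 (MDA5) had log2 changes of 0.29 and 0.14 (adjusted p 0.227 and 0.459).

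Psmb9, Psmb8 and Tap1 lie side by side on chromosome 17 (chr17:34181987-34201454), and Psmb9 passed. Psmb9 and Psmb8 are catalytic subunits of the immunoproteasome, and Tap1 is part of the pump that brings peptides to class I. Psmb9 had 204, 238, 240 and 260 normalized counts in the ATF3 libraries, against 115, 174, 199 and 148 in the Null libraries. The groups were apart by a small margin, and the log2 change was 0.59 (SE 0.17, adjusted p 0.0334). Psmb8 and Tap1 had log2 changes of 0.05 and 0.14 (adjusted p 0.828 and 0.603). The call of Psmb9 was lost without any 1 of ATF3 2, ATF3 3, ATF3 4 and Null 1 (adjusted p 0.0620 to 0.0991).

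Upstream of the members, the interferon genes themselves gave almost no signal. None of the 10 listed ligand genes passed the filter: Ifnb1, Ifne, Ifnl2, Ifnl3 and the 4 Ifna genes were listed at 0 in all 8 libraries, and no library had more than 3.10 normalized counts of Ifng or 3.27 of Ifnk. At values this low a difference in the ligands was not detectable. Of 18 tested receptor, kinase, STAT and factor genes, 1 rose and 3 fell (median log2 change 0.06), which is 22.2% called against 21.2% of all tested genes. The receptor chains Ifnar1, Ifnar2, Ifngr1 and Ifngr2 and the kinases Jak1, Jak2 and Tyk2 had log2 changes between -0.26 and 0.18 (adjusted p 0.119 to 0.804), of which those of Ifnar2, Ifngr2, Jak1 and Jak2 turned sign on the TPM scale and that of Jak2 also with equal library sums. Ifngr2 and Jak1 passed as lower without Null 4 (adjusted p 0.020 and 0.0470). With library weights Ifngr2 and Jak1 also passed as lower (log2 changes -0.39 and -0.32, adjusted p 0.0061 and 0.0348). Ifngr1 passed as higher in that setting (0.25, adjusted p 0.0324).

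The factors that fell were Irf5, Nlrc5 and Stat3. Irf5, which drives inflammatory genes in myeloid cells, had 303, 272, 232 and 225 normalized counts in the ATF3 libraries, against 461, 585, 460 and 709 in the Null libraries. Nlrc5, the transactivator of MHC class I genes, had 415, 532, 384 and 441 normalized counts in the ATF3 libraries, against 727, 990, 982 and 979 in the Null libraries. In both genes every ATF3 value was below every Null value, with log2 changes of -1.09 (SE 0.16, adjusted p 0.00105) for Irf5 and -1.05 (SE 0.14, adjusted p 0.000474) for Nlrc5. On the TPM scale, where the median of all tested genes was 0.75, neither passed. The log2 changes there were -0.17 for Irf5 (adjusted p 0.80) and -0.18 for Nlrc5 (adjusted p 0.739). Neither gene lost its call after the TPM values were rescaled by the median of ratios. Stat3 had a log2 change of -0.30 (adjusted p 0.0438) and 0.65 on the TPM scale, and Irf2bp2, which rose, one of 0.45 (adjusted p 0.0431). Stat3 lost its call without any 1 of ATF3 2, ATF3 3, ATF3 4, Null 1, Null 2 and Null 3 (adjusted p 0.0852 to 0.139), with equal library sums (0.265), with quantile normalization (0.0532) and with a lower filter (0.0520). Irf2bp2 lost its call without any 1 of ATF3 1, ATF3 3, ATF3 4, Null 2 and Null 3 (adjusted p 0.0735 to 0.125).

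Of 14 negative regulators 3 rose, which is 21.4% called against 21.2% of all tested genes, and 1 of these is Atf3 itself, the vector's own gene. The others were Tnfaip3 (A20), a brake on NF-kappa-B signalling, with a log2 change of 0.66 (SE 0.16, adjusted p 0.0145), and Samhd1, a dNTP hydrolase, with 0.41 (SE 0.11, adjusted p 0.0208). Of 16 nucleic acid sensing genes 1 passed (6.25%): Ikbke, the kinase related to TBK1, rose by 0.81 (SE 0.21, adjusted p 0.0205). Samhd1 lost its call without any 1 of ATF3 1, ATF3 3, ATF3 4, Null 1, Null 2 and Null 3 (adjusted p 0.0528 to 0.0603), and Ikbke without any 1 of ATF3 1, ATF3 2, ATF3 3 and Null 1 (0.0515 to 0.0578).

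Among 47 other tested effectors of the interferon response, 5 rose (10.6%, against 11.4% of all tested genes) and 3 fell (6.38%, against 9.82%), with a median log2 change of 0.01. Isg20 rose by 0.84, Tor3a by 0.76, Samd9l by 0.62, Parp9 by 0.42 and Znfx1 by 0.39. The 3 that fell were Ifi27 (-0.73), Ifitm3 (-0.59) and Ifitm2 (-0.53). All 3 had positive changes on the TPM scale (0.23, 0.41 and 0.47), where the median of all tested genes was 0.75. Ifitm2 and Ifitm3 are membrane proteins that block virus entry, and Ifitm2 shares 55.5% of its stretches with other genes. Isg20 lost its call without any 1 of ATF3 2, ATF3 3, ATF3 4 and Null 1 (adjusted p 0.0563 to 0.101) and with quantile normalization (0.0509), and Samd9l without any 1 of ATF3 2, ATF3 3, ATF3 4, Null 1 and Null 3 (0.0554 to 0.0741). Parp9 lost it without ATF3 3 (0.0503), and Ifitm3 without any 1 of the 4 ATF3 libraries, Null 2 and Null 3 (0.0613 to 0.0932) and with equal library sums (0.0933).

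Of 20 tested relatives of the member GTPases, 1 rose and 2 fell, which is 15% called against 21.2% of all tested genes. Gbp10 rose by a log2 change of 1.53 (SE 0.26, adjusted p 0.00254), with 89.8% of its stretches in other genes, mainly Gbp6. Gm4070 fell by 1.18 and F830016B08Rik, an IRG-like gene on chromosome 18, by 0.96 on the log2 scale. F830016B08Rik was at 0.02 on the TPM scale, where the median of all tested genes was 0.75. Of 16 class I genes 12.5% were called and of 14 constitutive proteasome genes 7.14%, both below the share of all tested genes. H2-K1 rose (0.36, adjusted p 0.0237) and H2-Q7 fell (-1.11, adjusted p 0.0131), and Psma6 of the proteasome list rose (0.34, adjusted p 0.0288). H2-K1 lost its call without any 1 of ATF3 2, ATF3 3, ATF3 4, Null 2 and Null 3 (adjusted p 0.0564 to 0.0850), and Psma6 without any 1 of ATF3 2, ATF3 3, ATF3 4 and Null 3 (0.0572 to 0.0946).

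**Figure D4:**
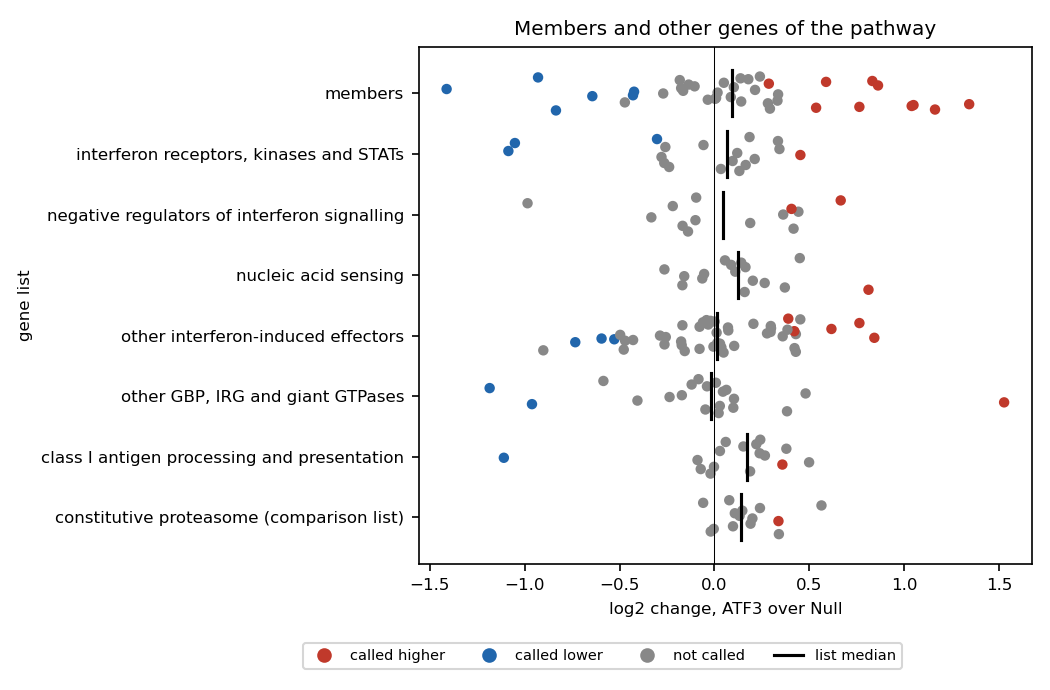
Log2 change (ATF3 over Null) of each tested gene (points) in the members and 7 further gene lists, with the list median as a black bar; Gvin1 (-6.00) and Atf3 (8.05) lie outside the axis and are not drawn. Members hold 10 higher and 7 lower calls, and no other list median is further from 0 than that of the class I list (0.17).

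The markers of immune cells gave the following values beside the members. Of 11 Kupffer cell and macrophage markers none passed limma's test, and their summed normalized counts ran from 12880 to 17934 in the ATF3 libraries and from 11127 to 16769 in the Null libraries, with the highest of these in ATF3 1 and Null 4. None of 4 general leukocyte markers, 5 tested B cell markers, 4 tested plasmacytoid dendritic cell markers, 4 tested neutrophil and monocyte markers or 8 endothelial markers passed either. All 11 Kupffer cell and 4 leukocyte markers had positive log2 changes (medians 0.15 and 0.17). All 5 tested B cell markers had negative ones (median -0.41). The plasmacytoid dendritic cell, neutrophil and monocyte, and endothelial lists held changes of both signs. Ly6g was listed at 0 in all 8 libraries. Of 5 tested T and NK cell markers, Cd4 fell (-1.33, adjusted p 0.00623). Log2 changes were positive for 3 of these 5 markers and negative for 2 (median 0.41). The summed list ran from 78.3 to 112 normalized counts in the ATF3 libraries and from 107 to 138 in the Null libraries. Cd4 is part of that sum, with a mean of 17.9 in the ATF3 libraries and 47.2 in the Null libraries. Of the hepatocyte markers, Ttr and Apoh rose and Serpina1a fell; Rgs5 of the stellate cell list and Sox9 of the cholangiocyte list fell. The part of these cells in the members' values was not tested.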

How the data were processed

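Liver RNA was isolated with mirVana and made into TruSeq stranded libraries, per the labels' protocols; reads were aligned with Bowtie2 to mm10, per the submitters' processing notes. No source used here names the quantifier, its annotation or its filters. The authors deposited normalized counts (a signal per gene, already scaled between libraries and not whole numbers, so no count model was used) and TPM values. The 26 TPM rows with date-mangled symbols were left out. The largest number of tested genes with identical values in a pair of libraries was 10.

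Normalized counts were analysed as log2(value + 1) with limma 3.58.1 in R 4.3.3 (trend, two-sided, Benjamini-Hochberg) over the 13301 genes that reached 10 in 4 or more libraries; TPM was used for alternatives and for levels per length. The value added before the logarithm pulls the log2 changes of low genes towards 0. Where some libraries of a group are at 0, the log2 change can instead exceed that of the group means. Gvin1 had a log2 change of -6.00 and a ratio of means of 0.125. The fit was tested on simulated data. Read totals are not given, so depth is not known, and sums of values already scaled between libraries do not measure it. The error of each value is the spread of 4 libraries per group. The text names all members, the called genes of each pathway list (at most 6 by p), the tested receptor, JAK and STAT genes (1 of which is not reported here), Atf3 and markers; the 6 GBP genes that did not pass, the Ifng and Ifnk values and the genes under other observations were chosen after their values were seen. The members and lists were chosen with earlier results of these data known. Symbols were matched to GENCODE vM21 for spans and for 31-base stretches shared between genes, and to RefSeq (GRCm38.p6) for promoter windows. Alternatives covered the value added, the filter, the scaling, the TPM table, the variance model, library weights and each library left out.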

Additional observations from a re-analysis of the deposited data

Results flagged for a closer look

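In 11 of 140 groups examined (70 genes in each group of 4 libraries) 1 library lay further from the others than Dixon's 95% critical value allows; chance gives about 5% of groups. Among members, Null 4 was the high library for Cmpk2 (238.9 normalized counts, the other Null libraries 151 to 158), Irf9 (1053, the others 843 to 860), Gbp6 (869, the others 564 to 580) and Gvin1 (2149, the others 832 to 919). ATF3 2 was high for Ddx58 (1274, the other ATF3 libraries 1098 to 1114). Null 1 was low for Ifih1 (1181, the other Null libraries 1664 to 1710), and ATF3 1 was low for Tap1 (581, the other ATF3 libraries 766 to 787).

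Among the pathway genes, ATF3 1 was low for Ifitm3 (2566 normalized counts, the other ATF3 libraries 3308 to 3384) and ATF3 4 for Ifnar1 (1759, the others 1840 to 1854). Null 1 was low for Nlrc5 (727, the other Null libraries 979 to 990) and Ifi27 (754, the others 1105 to 1151). Cmpk2, Gbp6 and Nlrc5 passed limma's test with and without these libraries.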

How the results depend on the processing

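No paired analysis was possible because the labels number the libraries 1 to 8 and the groups share no number. With equal library sums 2476 genes of all passed as higher and 835 as lower, and the median of all genes was 0.13; with TPM 219 and 47, and with library weights 2271 and 2130, against 1513 and 1306. With TPM the members' median was 0.91, with 0 higher and 1 lower. Leaving out 1 library gave 1003 to 1960 higher and 846 to 1774 lower genes, 6 to 11 higher and 5 to 6 lower members, and a member median of -0.03 to 0.13.

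Signs turned on the TPM scale for Irf1 (0.49), Irgm2 (0.50), Iigp1 (0.36), Bst2 (0.16), Stat3 (0.65), Ifitm2 (0.47), Ifitm3 (0.41), Ifi27 (0.23), F830016B08Rik (0.020), Ifit2 (0.56), Isg15 (0.54), Oas1a (0.41), Oasl2 (0.47), Irf9 (0.62), Ifi44 (0.20), Rtp4 (0.66), Ifnar2 (0.74), Ifngr2 (0.63), Jak1 (0.70) and Jak2 (0.73). With equal sums they turned for Ifit2 (0.092), Oas3 (0.022) and Jak2 (0.070), with library weights for Ifit2 (0.045), Ifit3b (-0.015), Oas2 (-0.0093), Stat2 (-0.013) and Ifnar1 (-0.016), with quantile normalization for Ifit3b (-0.065), and in the sum of copies for Ifit3 (-0.0022). The median of all tested genes on the TPM scale was 0.75. After the TPM values were rescaled by the median of ratios, 0 of the 37 members tested there turned sign. None of the pathway genes listed above turned sign or changed its call there. The cause of the turned signs was not tested.

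With 1 library left out, log2 changes of both signs were found for Ifit2 (-0.11 to 0.086), Ifit3 (-0.092 to 0.12), Ifit3b (-0.089 to 0.14), Isg15 (-0.48 to 0.029), Mx1 (-0.029 to 0.48), Oas2 (-0.11 to 0.23), Oas3 (-0.23 to 0.026), Stat2 (-0.028 to 0.30), Igtp (-0.024 to 0.26), Irgm1 (-0.072 to 0.10) and Psmb8 (-0.043 to 0.13), none of which passed. Library weights were lowest for Null 4 (0.228), and with them the members Irf7 and Ifi35 passed as well. Of the receptor and kinase genes, Ifngr1, Ifngr2 and Jak1 also passed with these weights. Read depth is not known for these values, and ligands at or near 0 cannot be compared.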

Other observations

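For 10 pairs of neighbouring or related genes the ratio within each library was set side by side. In 7 pairs the groups did not overlap and in 3 they did, and the share among other gene pairs was not computed. The first gene of every pair had groups that did not overlap on its own, so these counts are not a separate result. The ratios below are of normalized counts, not per length, so that only their differences between libraries can be read; the pairs were chosen with the values known and not tested. Mx2 over Mx1 was 1.02 to 1.31 in the ATF3 libraries, against 2.15 to 5.85 in the Null libraries. Psmb9 over Psmb8, the neighbouring immunoproteasome subunits, was 0.464 to 0.486 in the ATF3 libraries, against 0.267 to 0.398 in the Null libraries. Oasl1 over Oasl2 was 2.16 to 2.57 in the ATF3 libraries, against 0.717 to 1.92 in the Null libraries. Gbp7 over Gbp5 was 22.5 to 32.9 in the ATF3 libraries, against 6.69 to 11.3 in the Null libraries. Iigp1 over its relative Gm4951 was 2.01 to 2.58 in the ATF3 libraries, against 3.21 to 3.78 in the Null libraries. Psmb9 over Tap1 was 0.305 to 0.352 in the ATF3 libraries, against 0.176 to 0.287 in the Null libraries, and Rsad2 over Ifit1 was 1.28 to 1.42 in the ATF3 libraries, against 0.801 to 1.155 in the Null libraries. The 3 pairs with overlap included the neighbours Cmpk2 over Rsad2, at 0.665 to 0.753 in the ATF3 libraries, against 0.428 to 0.789 in the Null libraries. Irgm2 over Igtp was 1.499 to 2.13 in the ATF3 libraries, against 1.65 to 2.97 in the Null libraries. Usp18 over Isg15 was 1.71 to 4.39 in the ATF3 libraries, against 2.55 to 11.7 in the Null libraries.

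Single libraries held unusual levels of some genes that did not pass the test or were not part of it. Klk1, a tissue kallikrein, had 2317 normalized counts in Null 1 and at most 15.6 in any other library. Gbp11 had 2360 in Null 2, against 308 to 911 in the other libraries. Trim25, a ubiquitin ligase of the RIG-I pathway, had 985 in Null 4, against at least 1939 in the other libraries.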
